A study of Mus musculus with 18 samples.

Results

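Cholesterol handling outside its synthesis was followed through 8 genes, Mylip, Lipa, Npc1, Npc2, Stard4, Soat1, Abca1 and Abcg1. They were taken by name from a count table of 55487 genes, and all 8 passed the filter on low counts, which left 15381 genes. RNA-seq had been done on MEFs, wild-type mouse embryonic fibroblasts carried as a cell line, in 18 libraries that form 6 groups of 3. In the Scm group the cells grew in complete medium with S-FBS, a fetal bovine serum under which they were sensitive to ferroptosis. In the Rcm group the medium held R-FBS, a serum that conferred resistance to this iron-dependent form of cell death. S-Rcm 12 h and S-Rcm 24 h were cells of Scm culture that received Rcm for the time named. R-Scm 12 h and R-Scm 24 h were the converse exchange, from Rcm to Scm. Cell culture experiments of the study are described in general as independent replicates, but what separated the libraries of a group is not described, so the p-values measure the spread between these libraries, which may be technical. All groups share 1 genotype and 1 cell line, so that the results are those of a single fibroblast line.

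Cells take cholesterol up in lipoproteins, free it in the lysosome, move it between membranes on carrier proteins, store the surplus as esters and export it to acceptors outside the cell. Low sterol raises the genes of synthesis and uptake through the SREBP factors, and oxysterols formed from surplus sterol activate the LXR receptors, which raise export. Mylip encodes an LXR-induced ubiquitin ligase that sends lipoprotein receptors to degradation. Lipa encodes the lysosomal acid lipase, which splits cholesteryl esters, and Npc1 and Npc2 encode the pair of proteins that hand the freed cholesterol across the lysosomal membrane. Stard4 encodes a soluble sterol carrier of the cytosol. Soat1 encodes the enzyme of the endoplasmic reticulum that esterifies cholesterol for storage. Abca1 and Abcg1 encode membrane transporters that export cholesterol to apolipoprotein A-I and to high-density lipoprotein, and both are classical LXR targets.

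A promoter entry was found in the RefSeq table (GRCm38.p6) for 5 of the 8 genes, Soat1, Mylip, Lipa, Npc2 and Abca1. The 250 bases before the start are shown 5′ to 3′ for Soat1, whose libraries were apart in each of the 5 main comparisons, and for Mylip and Abca1, whose levels ran alike over the libraries. Capitals mark the motifs found in them.
Soat1, chr1:156474329-156474578, minus strand: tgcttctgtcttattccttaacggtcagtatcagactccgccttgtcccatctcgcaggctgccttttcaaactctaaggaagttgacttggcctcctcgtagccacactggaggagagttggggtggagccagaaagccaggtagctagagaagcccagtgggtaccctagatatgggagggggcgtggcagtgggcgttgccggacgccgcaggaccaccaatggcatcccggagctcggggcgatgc
Mylip, chr13:45389492-45389741, plus strand: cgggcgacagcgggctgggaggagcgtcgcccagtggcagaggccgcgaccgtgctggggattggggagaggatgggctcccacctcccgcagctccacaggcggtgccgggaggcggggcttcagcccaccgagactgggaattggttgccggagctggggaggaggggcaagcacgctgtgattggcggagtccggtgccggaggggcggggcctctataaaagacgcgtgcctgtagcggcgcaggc
Abca1, chr4:53159896-53160145, minus strand: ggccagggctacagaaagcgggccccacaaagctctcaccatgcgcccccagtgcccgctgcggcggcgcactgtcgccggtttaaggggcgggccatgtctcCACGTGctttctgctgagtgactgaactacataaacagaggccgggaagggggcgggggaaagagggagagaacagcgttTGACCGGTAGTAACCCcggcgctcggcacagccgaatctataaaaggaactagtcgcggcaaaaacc

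Motifs were searched on both strands in the windows of 250 bases before and 50 after each start. The sterol element TCACCCCAC, which SREBP binds, was in 0.551% of 32851 promoters and in none of the 5. The E-box TCACGTGA was in 0.974% of promoters and also in none of the 5, and its core CACGTG was in 7.15%. Abca1 alone held the core, from base -147 to base -142 before the start. The LXR element is a direct repeat of AGGTCA with 4 bases between the copies (DR4). The exact repeat was in 0.0152% of promoters, a form with at most 1 change in each copy was in 1.75%, and neither was in any of the 5. A looser form, with at most 2 changes in a copy and 3 in all, was searched after the sequences had been seen. It matched 18.8% of all promoters and, of the 5, only Abca1, on the opposite strand from base -67 to base -52. These matches are letters in a window, and no binding was measured.

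Per kilobase of exon, the mean level over the 18 libraries ranged from Npc2 at 57.5 CPM per kb (CPM are reads of a gene per 1000000 reads of the library after TMM scaling), through Stard4 at 24.1, Soat1 at 14.3, Mylip at 10.1, Lipa at 8.49 and Npc1 at 4.42, to Abca1 at 1.01 and Abcg1 at 0.127. The 2 exporters were thus the least abundant. Abcg1 rested on 7 to 34 counts per library and Abca1 on 102 to 295, whereas Stard4 had 1469 to 3612 and Soat1 1816 to 3128. Total counts were 14534906 to 20313715 per library. The mean of the highest group was 2.15 times that of the lowest for Abcg1, 2.04 times for Stard4, 1.90 times for Abca1, 1.74 times for Lipa and 1.44 times for Soat1. It was 1.29 times for Mylip and for Npc2, and 1.16 times for Npc1, which varied least. Bulk RNA cannot separate fewer cells of a kind from less RNA per cell.

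**Figure D1:**
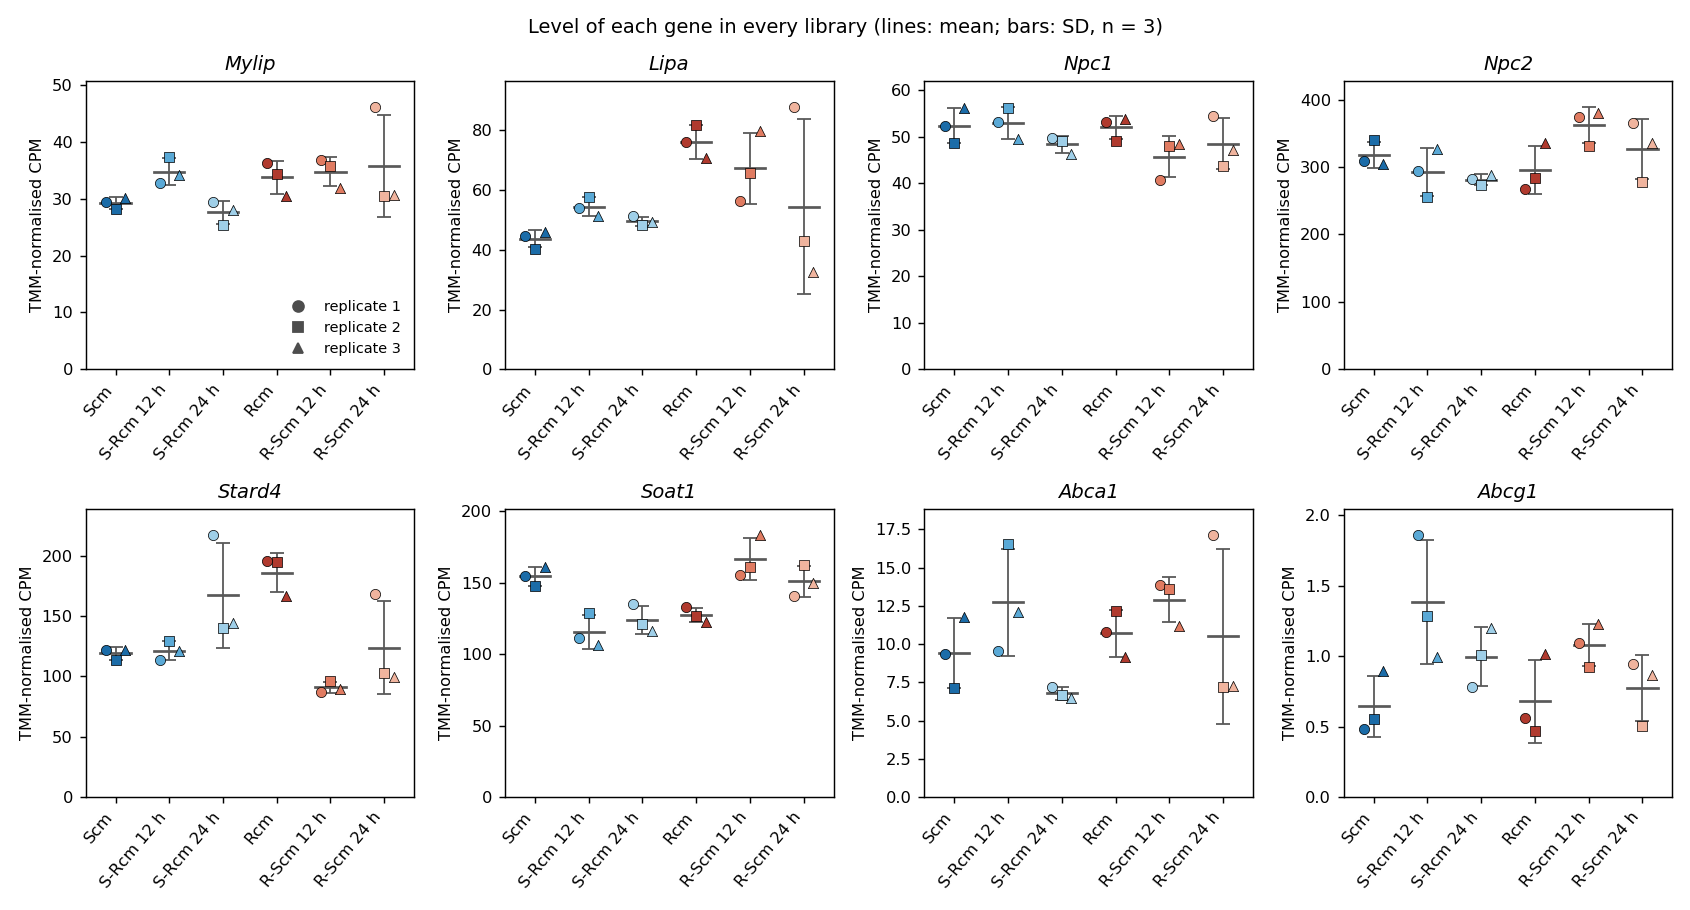
TMM-normalised CPM (y axis, from 0) of the 8 genes in each library of the 6 groups (x axis), with 1 symbol per replicate number, the group mean as a line and the SD as a bar. Stard4 is highest in Rcm and lowest in R-Scm 12 h, and Soat1 is highest in R-Scm 12 h and lowest in S-Rcm 12 h. Replicate 1 of R-Scm 24 h lies above the other libraries of its group for every gene but Soat1, and furthest above for Lipa, Stard4, Mylip and Abca1.

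Replicate 1 of R-Scm 24 h stood apart. Over all tested genes it had the largest distance from the other libraries, a root mean square of 0.562 on the log2 scale, against 0.393 to 0.502 for the others. Replicates 2 and 3 of its group came next, at 0.496 and 0.502, with Rcm replicate 3 also at 0.496. The distance alone thus does not show which library of the group departed. The fold changes of the 8 genes in R-Scm 24 h against Rcm, and the calls on the lists of sterol synthesis and of cholesterol handling, are therefore given with and without it. The fit over all libraries shares its estimate of spread, so this replicate also enters the SE of comparisons that do not hold its group. Those were not refitted without this library alone, but each was also fitted with only its own groups. Other values, the correlations among them, include it unless the text says otherwise. The 8 fibroblast markers were expressed in every library, with a summed level of 7906 to 11200 CPM. This sum varied between groups but did not always follow the medium: it was 8674 to 8807 CPM in Scm, 10410 to 10710 in Rcm, 7906 to 8260 in R-Scm 12 h, 8203 to 9085 in S-Rcm 12 h, 9371 to 11010 for S-Rcm at 24 h, and 11200, 9056 and 8358 in the R-Scm 24 h libraries. The macrophage list, 8 markers with 2 to 5 of them counted in a library, summed to 2.23 to 5.27 CPM, with Adgre1 and Tyrobp at 0 counts in all libraries and Cd68 as the only one that passed the filter. The endothelial, epithelial and adipocyte lists summed to at most 3.25, 1.47 and 2.46 CPM. Fabp4, the only adipocyte marker that could be tested, was called higher in Rcm than in Scm, with a mean of 1.66 against 0.485 CPM. The part of the marker levels in the results was not tested.

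A gene was called a DEG (differentially expressed gene) where its log2 fold change passed 0.58 in either direction with an adjusted p under 0.05 by edgeR's quasi-likelihood test over all 15381 genes. Of the 8 genes, 0 were called in Rcm against Scm, where 2.3% of all genes were, and 1 was called in R-Scm 12 h against Rcm, where 2.74% were. None was called in R-Scm 24 h against Rcm (0.377% of all genes), in S-Rcm 12 h against Scm (0.858%) or in S-Rcm 24 h against Scm (0.338%). With 1 library left out, the calls over all genes ranged from 178 to 574 in Rcm against Scm, where all libraries gave 354. They ranged from 275 to 420 in R-Scm 12 h (421 with all libraries), from 36 to 76 in S-Rcm 12 h (132) and from 6 to 28 in S-Rcm 24 h (52). The R-Scm 24 h share also hung on single libraries. Without replicate 1 of that group 3.19% of all genes were called, 501 in place of 58, and 2 of the 8, Lipa and Stard4. Without replicate 2 or 3 the calls over all genes were 19 and 14. At an unadjusted p under 0.05 the same 5 comparisons held 3, 3, 2, 2 and 2 of the 8 genes, and 16.2%, 17.6%, 10.3%, 14.3% and 8.11% of all genes. With Rcm and Scm fitted alone, Lipa and Stard4 were called in that comparison, where 456 of 14346 genes were. By DESeq2 the counts among the 8 genes were 2 in Rcm against Scm, 1 for R-Scm at 12 h and 0 in the other three. Over all genes DESeq2 called 488, 561, 162, 257 and 135 of 29856 in the 5 comparisons, more than edgeR in each. The medians of their log2 fold changes were 0.15, 0.16, 0.03, 0.14 and -0.10, and those of all genes lay between -0.01 and 0.02. The libraries did not overlap between the groups for 4, 3, 1, 4 and 4 of the 8 genes, while the share of all genes without overlap was 23.9%, 23.4%, 11.2%, 26.4% and 19.5%. Without replicate 1 of R-Scm 24 h the third of these comparisons had 5 of the 8 genes apart, 31.4% of all genes apart and a median of -0.17 for the 8.

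**Figure D2:**
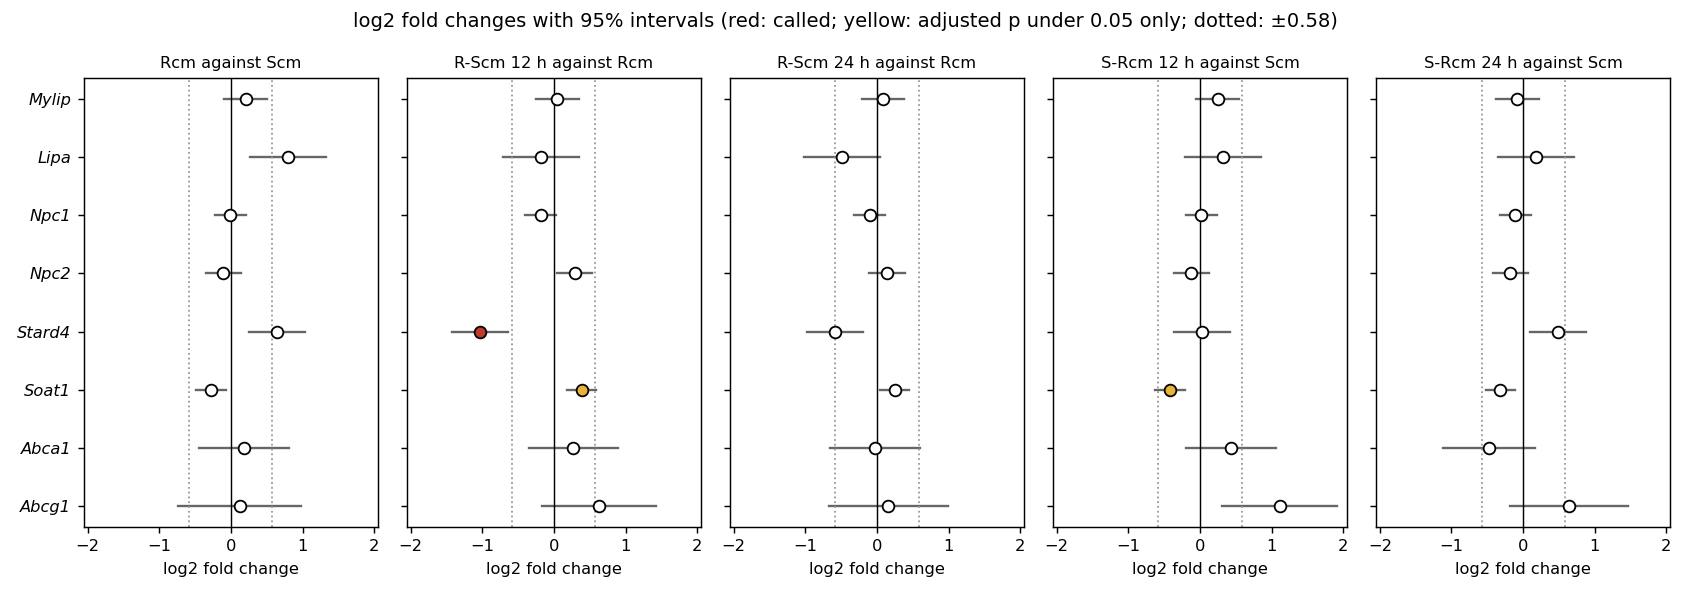
log2 fold change (x axis) of each gene (y axis) in the 5 comparisons, with 95% intervals. Stard4 in R-Scm 12 h is the only DEG (red), Soat1 in R-Scm 12 h and in S-Rcm 12 h passed the adjusted p but not the fold threshold (yellow), and dotted lines mark log2 fold changes of -0.58 and 0.58.

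Stard4, the sterol carrier (chr18:33199355-33213862, minus strand of GRCm38, as for the positions that follow), was the only one of the 8 genes called in the 5 main comparisons. It stood at 122, 113 and 122 CPM in the Scm libraries and at 196, 195 and 167 CPM in the Rcm libraries. After the change from Rcm to Scm it stood at 87.0, 96.1 and 89.98 CPM at 12 h. All R-Scm 12 h libraries thus lay below every Rcm library, and below every Scm library as well. Stard4 fell by 1.03 ± 0.18 (SE) on the log2 scale in R-Scm 12 h against Rcm, to 0.490 times (adjusted p = 0.0034), and remained a DEG without each of the 6 libraries in turn, with adjusted p between 0.0099 and 0.019. At 24 h in Scm the libraries held 169, 103 and 99.9 CPM. The first of these, the replicate that stood apart, was within the Rcm range and the others below it. The log2 fold change against Rcm was -0.58 ± 0.18 (adjusted p = 0.19), and without this replicate -0.87 ± 0.15 (adjusted p = 0.0035), which made Stard4 a DEG.

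In the converse exchange Stard4 did not differ detectably at 12 h, at 114, 129 and 121 CPM in Rcm medium, with a log2 fold change of 0.03 and a 95% interval from -0.36 to 0.42. At 24 h it was 217, 140 and 144 CPM, above all Scm libraries, and the log2 fold change was 0.49 ± 0.18 (adjusted p = 0.40). Rcm against Scm gave 0.64 ± 0.18 with no overlap of the libraries (adjusted p = 0.070). That difference was a DEG when the 6 libraries of these groups were fitted alone (0.63, adjusted p = 0.0076) and by DESeq2 (0.63, adjusted p = 0.024). In order of the group means, Rcm at 186 ± 16 CPM (SD, n = 3) was followed by S-Rcm 24 h at 167 ± 43, R-Scm 24 h at 124 ± 39, S-Rcm 12 h at 121 ± 7.6, Scm at 119 ± 5.1 and R-Scm 12 h at 91.0 ± 4.6. Only the last step in this order separated neighbouring groups without overlap.

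The genes of sterol synthesis were read beside Stard4 through a list of 9 (Hmgcs1, Mvd, Idi1, Fdps, Fdft1, Sqle, Lss, Cyp51 and Insig1). In R-Scm 12 h against Rcm 9 of 9 were called lower, with a median log2 fold change of -1.67 against -0.01 for all genes. In Rcm against Scm 5 of 9 were called higher (median 0.81), and in R-Scm 24 h against Rcm 3 of 9 lower (median -0.84), or 9 of 9 (median -1.21) without the replicate that stood apart. The move from Scm to Rcm gave 0 calls at 12 h (median 0.09) and 1 higher at 24 h (median 0.56). At an unadjusted p under 0.05 the counts were 0 and 7. Over the 18 libraries the genes whose log2 CPM ran most like Stard4, of 13534 with a mean of at least 1 CPM, were Rdh11 (Pearson's r = 0.98), Gm13502 (r = 0.97) and Scd1 (r = 0.97), the gene of a stearoyl-CoA desaturase. These libraries share the media and their changes, and the correlations are given as descriptions.

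Soat1, which esterifies cholesterol (chr1:156424525-156474331, minus strand), was higher in the libraries with S-FBS. It stood at 155, 148 and 161 CPM in Scm and at 133, 127 and 123 CPM in Rcm. Cells moved from Scm to Rcm held 111, 129 and 106 CPM at 12 h and 135, 121 and 117 CPM at 24 h. Cells moved from Rcm to Scm held 156, 161 and 184 CPM at 12 h and 141, 163 and 150 CPM at 24 h. Every library in S-FBS medium at harvest was thus above every library in R-FBS medium, and Soat1 was the only one of the 8 genes whose libraries were apart in all 5 comparisons.

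The changes in Soat1 were modest in size. Its log2 fold change was 0.39 ± 0.094 (SE) in R-Scm 12 h against Rcm (adjusted p = 0.027) and -0.42 ± 0.094 in S-Rcm 12 h against Scm (adjusted p = 0.035). Both passed the adjusted p, neither the fold threshold of 0.58. The adjusted p rose above 0.05 when 1 library was left out in 4 of 6 cases for the first, up to 0.13, and in 5 of 6 cases for the second, up to 0.17. Rcm against Scm gave -0.28 ± 0.094 (adjusted p = 0.14), R-Scm 24 h against Rcm 0.24 ± 0.094 (adjusted p = 0.35, or 0.29 with adjusted p = 0.13 without the replicate that stood apart) and S-Rcm 24 h against Scm -0.32 ± 0.094 (adjusted p = 0.22). The genes most like Soat1 over the libraries were Cobll1 (r = 0.94), Gm8783 (r = 0.91) and Nipal1 (r = 0.90).

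The responses to the exchanges were set against each other as the log2 fold change from Scm to S-Rcm minus that from Rcm to R-Scm. Since the exchanges run in opposite directions, mirrored changes of equal size add up in this difference, and it does not test whether the sizes were unequal. At 12 h this difference was -0.81 ± 0.13 (SE) for Soat1 (adjusted p = 0.0031) and 1.06 ± 0.25 for Stard4 (adjusted p = 0.037). Thus 2 of the 8 genes were called, against 2.03% of all genes. Soat1 was called without each of the 12 libraries in turn, while Stard4 lost its call in all 12 cases, with adjusted p from 0.055 to 0.097. At 24 h the difference was 1.07 ± 0.25 for Stard4 (adjusted p = 0.046), the only call, against 1.37% of all genes. For Soat1 it was -0.56 ± 0.13 (adjusted p = 0.045), short of the fold threshold. With 1 library left out, Stard4 kept its 24 h call in 2 of 12 cases, and the adjusted p of Soat1 was under 0.05 in 2 of 12 and rose to 0.12. Among 7 other settings of scaling, filter and model, Stard4 was called at 24 h in 2 and Soat1 in 2. Without replicate 1 of R-Scm 24 h the 24 h differences were 1.36 ± 0.20 for Stard4 (adjusted p = 0.00066), -0.61 ± 0.14 for Soat1 (adjusted p = 0.015) and 1.19 ± 0.19 for Lipa (adjusted p = 0.0011), all called, where 4.85% of all genes were. The differences at 12 h and 24 h share the Scm and the Rcm libraries.

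Within single libraries, the log2 CPM per kb of Soat1 minus that of Stard4 is given as a description, since the pair was picked after its levels had been seen. This difference was -0.47, -0.42 and -0.41 in Scm and -1.37, -1.43 and -1.26 in Rcm. It was -0.84, -0.81 and -1.0 in S-Rcm 12 h, then -1.50, -1.03 and -1.12 after 24 h. All these lay below the Scm libraries. It was 0.03, -0.07 and 0.22 in R-Scm 12 h, above Scm. In R-Scm 24 h it was -1.07 in replicate 1, within the range of the R-FBS libraries, and -0.15 and -0.23 in the others, above Scm.

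**Figure D3:**
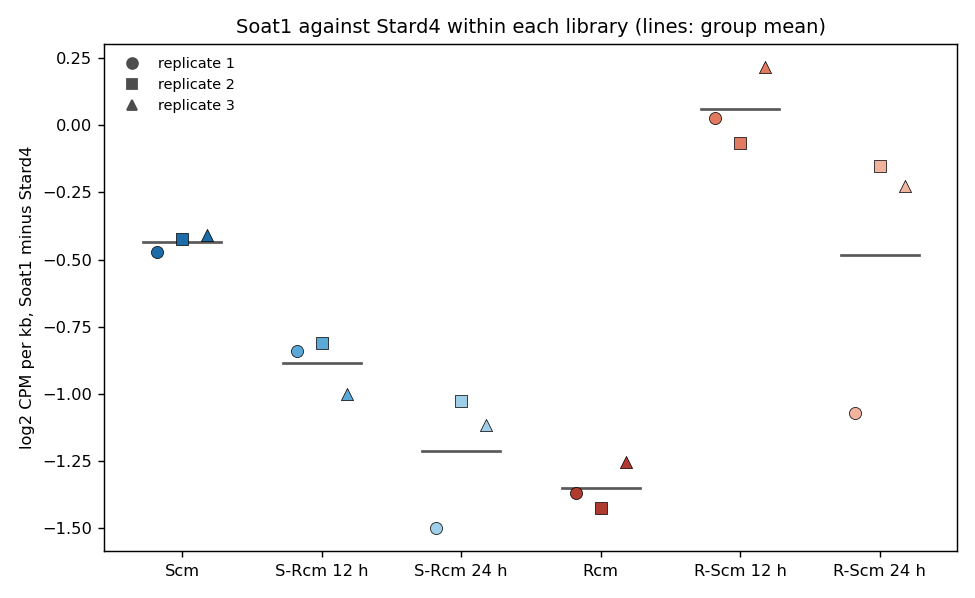
log2 CPM per kb of Soat1 minus that of Stard4 (y axis) in each library of the 6 groups (x axis), with lines at the group means and 1 symbol per replicate number. Scm, R-Scm 12 h and 2 libraries of R-Scm 24 h lie above all Rcm and S-Rcm libraries, and the remaining R-Scm 24 h library, replicate 1, lies among these.

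Lipa, the lysosomal acid lipase (chr19:34492318-34527474, minus strand), stood at 44.7, 40.4 and 45.9 CPM in Scm and at 75.9, 81.8 and 70.6 CPM in Rcm. The groups did not overlap, and the log2 fold change of 0.80 ± 0.24 (SE) had an adjusted p of 0.10. This SE rests on a spread shared by all 18 libraries, among them the replicate that stood apart. With the 6 libraries of Scm and Rcm fitted alone Lipa was a DEG (0.79 ± 0.094, adjusted p = 0.0033), as it was by DESeq2 (0.79 ± 0.25, adjusted p = 0.034). After the change from Scm to Rcm, Lipa was 54.0, 57.8 and 51.5 CPM at 12 h and 51.3, 48.2 and 49.2 CPM at 24 h, above every Scm library and below every Rcm library. The log2 fold changes against Scm were 0.32 ± 0.24 (adjusted p = 0.62) and 0.18 ± 0.24 (adjusted p = 0.94), and S-Rcm 24 h against Rcm gave -0.62 ± 0.24 (adjusted p = 0.54). In the other settings tried, by edgeR or DESeq2, the lowest adjusted p of these comparisons was 0.10, 0.46 and 0.055.

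After the change to Scm Lipa spread widely, from 56.2 to 79.8 CPM at 12 h. At 24 h it was 87.7 CPM in the replicate that stood apart, above every Rcm library, and 42.9 and 32.7 CPM in the others, below every Rcm library. The log2 fold change in R-Scm 24 h was -0.48 ± 0.24 against Rcm (adjusted p = 0.52), and without this replicate -1.01 ± 0.14 (adjusted p = 0.00063). R-Scm 24 h against R-Scm 12 h moved in the same way from -0.30 ± 0.24 (adjusted p = 0.62) to -0.83 ± 0.14 (adjusted p = 0.0045). The replicate therefore decided whether Lipa was a DEG in either comparison. In the second, 1.97% of all genes were called without it.

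Npc1 (chr18:12189692-12236400, minus strand) and Npc2 (chr12:84754562-84773152, minus strand), which take the cholesterol freed by Lipa out of the lysosome, had no call. The exons of Npc1 overlap those of Rmc1 over 511 bases and those of the antisense gene Gm15956 over 90 bases, both on the opposite strand. Since it is not given whether the counting used strand, reads in these stretches cannot be assigned with certainty. Npc1 had group means from 45.7 ± 4.4 CPM (SD, n = 3) in R-Scm 12 h to 53.0 ± 3.4 CPM in S-Rcm 12 h. Its log2 fold changes ran from -0.19 in R-Scm 12 h to 0.02 in S-Rcm 12 h, and the 95% interval of the former was -0.40 to 0.03. Npc2 had group means from 281 ± 8.0 CPM in S-Rcm 24 h to 362 ± 27 CPM in R-Scm 12 h. Its largest log2 fold change was 0.29 ± 0.11 (SE) in R-Scm 12 h against Rcm (adjusted p = 0.17). In all 5 comparisons the 95% intervals of Npc1 and of Npc2 lay within the fold thresholds of -0.58 and 0.58. Without the replicate that stood apart, R-Scm 24 h against Rcm gave -0.19 (-0.42 to 0.03) for Npc1 and 0.05 (-0.21 to 0.32) for Npc2. Beside them, a list of 16 lysosomal enzymes and coat proteins had 1 gene called lower in Rcm against Scm, 1 called higher in R-Scm 12 h against Rcm and 0 called by edgeR in the other three comparisons (2, 5 and 4 at an unadjusted p under 0.05), with medians between -0.11 and 0.07.

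Mylip, the ligase of lipoprotein receptors (chr13:45389742-45412022, plus strand), had 28.1 to 30.1 CPM in Scm and 30.5 to 36.3 CPM in Rcm, without overlap but at a log2 fold change of only 0.20 ± 0.14 (adjusted p = 0.48). It was 32.7 to 37.3 CPM in S-Rcm 12 h and 25.4 to 29.4 CPM in S-Rcm 24 h, so that the later libraries were all lower. That step, -0.33 ± 0.14, had an adjusted p of 0.47. In R-Scm 12 h Mylip was 31.9 to 36.7 CPM, and in R-Scm 24 h it was 46.1 CPM in the replicate that stood apart and 30.4 and 30.6 CPM in the others. Against Rcm this was 0.08 ± 0.14 with that replicate and -0.14 ± 0.11 without it (adjusted p = 0.90 and 0.53).

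Abca1, the exporter to apolipoprotein A-I (chr4:53030787-53159895, minus strand), was 9.35, 7.13 and 11.7 CPM in Scm and 10.8, 12.2 and 9.13 CPM in Rcm, with overlap. It was 9.57 to 16.5 CPM in S-Rcm 12 h and 6.45 to 7.22 CPM in S-Rcm 24 h, and the later time point differed by -0.91 ± 0.29 on the log2 scale (adjusted p = 0.27). Abca1 was 11.2 to 13.9 CPM in R-Scm 12 h. At 24 h it was 17.1 CPM in the replicate that stood apart and 7.19 and 7.23 CPM in the others. Its log2 fold change in R-Scm 24 h against Rcm was -0.02 ± 0.29 with this replicate and -0.57 ± 0.23 (adjusted p = 0.20) without it. Mylip and Abca1, both LXR targets, were each other's closest match among 13534 genes over the 18 libraries (r = 0.87). Without the replicate that stood apart r was 0.86, and Abca1 was then the second gene for Mylip behind Rin2 (r = 0.88). With the group means removed as well r was 0.72, and Abca1 was at rank 145 for Mylip.

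**Figure D4:**
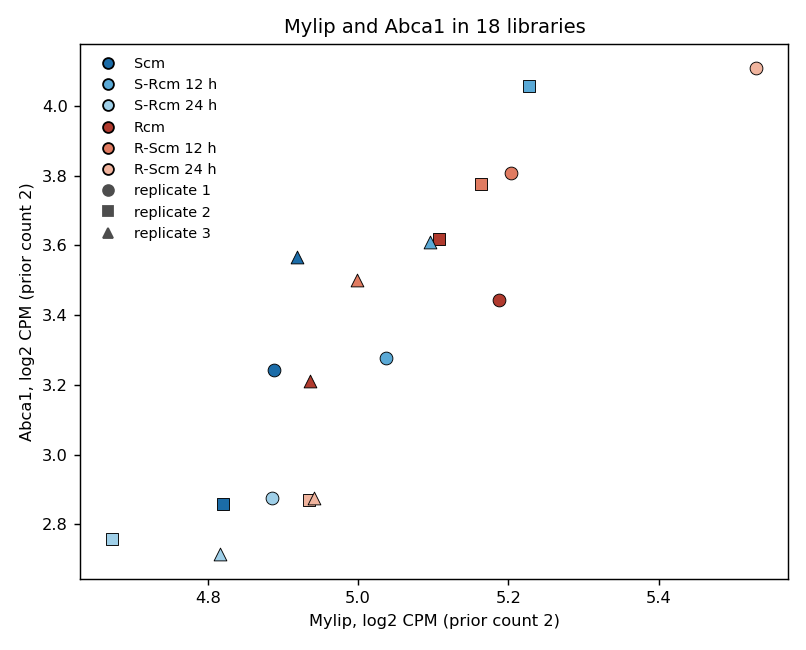
log2 CPM of Mylip (x axis) and of Abca1 (y axis) in the 18 libraries, coloured by group, with 1 symbol per replicate number. S-Rcm 24 h libraries lie at the low end of both axes, the 12 h libraries of both exchanges towards the high end, and replicate 1 of R-Scm 24 h highest on both.

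Abcg1, which exports to high-density lipoprotein (chr17:31057675-31117988, plus strand), was close to the limit of counting. It had 9, 8 and 13 counts in Scm, 34, 23 and 17 once Rcm had been present for 12 h, and 13, 18 and 19 after 24 h. It had 9, 7 and 20 counts in Rcm, 20, 18 and 20 once Scm had been present for 12 h, and 16, 8 and 17 after 24 h. The S-Rcm 12 h libraries were all above the Scm libraries, at 1.38 ± 0.44 against 0.643 ± 0.22 CPM (SD, n = 3). The log2 fold change was 1.11 ± 0.37 (SE), with an adjusted p of 0.16 and a 95% interval from 0.31 to 1.92. The other 4 log2 fold changes ran from 0.12 to 0.64 with adjusted p between 0.40 and 0.94. Without the replicate that stood apart, the one in R-Scm 24 h against Rcm was 0.0014 ± 0.45 (adjusted p = 1.0).

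The comparisons between time points and with the steady group of the medium received gave no further call among the 8 genes with all libraries fitted. In R-Scm 24 h against R-Scm 12 h (0.774% of all genes called), S-Rcm 24 h against S-Rcm 12 h (0.156%), R-Scm 24 h against Scm (0.592%) and S-Rcm 24 h against Rcm (0.221%) edgeR called 0 of 8. DESeq2 also called 0 of 8 in each, where it called 234, 89, 182 and 104 of 29856 genes. At an unadjusted p under 0.05 there were 1, 3, 0 and 2 of the 8, and 13.6%, 9.26%, 10.1% and 7.48% of all genes. Soat1 was within 0.04 of the level of the medium received, on the log2 scale, after 24 h in either direction: -0.03 against Scm (95% interval -0.24 to 0.17) and -0.04 against Rcm (-0.24 to 0.16). For Stard4 these values were 0.06 (-0.33 to 0.45) and -0.15 (-0.54 to 0.24). Without replicate 1 of R-Scm 24 h the values against Scm were 0.01 for Soat1 and -0.23 for Stard4, and 0 of 8 were called there (0.49% of all genes).

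The other genes of these pathways were read through a list of 46, of which 39 could be tested. Cd36, Npc1l1, Soat2, Abcg4, Abcg5, Abcg8 and Cyp7b1 did not pass the filter. In the 5 main comparisons edgeR called 0, 2, 0, 0 and 0 of the 39, the 2 of R-Scm 12 h against Rcm both lower, and DESeq2 0, 2, 0, 0 and 1 (Vldlr). Over all genes edgeR called 2.3%, 2.74%, 0.377%, 0.858% and 0.338%, and DESeq2 488, 561, 162, 257 and 135 of 29856. At an unadjusted p under 0.05 there were 7, 10, 7, 6 and 8 of the 39, to be read against the 16.2%, 17.6%, 10.3%, 14.3% and 8.11% of all genes. The first of the 2 was Lrp1, a large endocytic receptor of the uptake group, with 1317 ± 121 CPM in Rcm and 845 ± 144 CPM in R-Scm 12 h, so that it fell by 0.64 ± 0.14 (SE) on the log2 scale (adjusted p = 0.016). In R-Scm 24 h its libraries held 1419, 1114 and 1419 CPM, the first of them the replicate that stood apart. The other was Lipe, a neutral lipase of stored esters, with 15.6 ± 1.1 CPM in Rcm and 9.85 ± 2.4 CPM in R-Scm 12 h, so that it fell by 0.66 ± 0.18 on that scale (adjusted p = 0.043). These calls were sensitive. With 1 library left out the list held 0 to 2 calls, Lrp1 in 2 of 6 cases and Lipe in 1 of 6. Lipe was also not called with the replicate block or without a filter, where Lrp1 was. With the groups fitted alone it held 0. Without replicate 1 of R-Scm 24 h, Cyp27a1 was called lower in R-Scm 24 h against Rcm, where 3.19% of all genes were called. The remaining R-Scm 24 h libraries held 0.0 and 0.153 CPM of it, close to the limit of counting.

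By role, 1 of 7 uptake genes, 0 of 3 lysosomal membrane genes, 0 of 13 transport genes, 1 of 5 storage genes and 0 of 11 genes of export, LXR and oxysterols were called in R-Scm 12 h against Rcm. Their median log2 fold changes were -0.14, 0.19, -0.03, 0.08 and -0.40, and in the last group 10 of 11 values were negative. The 13 transport genes, the largest group, had 0 calls by edgeR in each of the 5 comparisons, with 0, 0, 0, 1 and 0 genes at an unadjusted p under 0.05. Stard4, the carrier called in R-Scm 12 h against Rcm, is not among them. For the difference of the exchanges 4 of the 39 genes of the list were called at 12 h, against 2.03% of all genes. These, chosen here after their values were seen, were Lipe (1.09 ± 0.25), Abca7 (0.86 ± 0.20), Lrp8 (0.74 ± 0.14) and Lpcat3 (0.72 ± 0.15), all positive (adjusted p between 0.0087 and 0.034). In S-Rcm 12 h against Scm they were 0.44, 0.34, 0.17 and 0.29 in this order, with none called. In R-Scm 12 h against Rcm they were -0.66, -0.51, -0.57 and -0.43, with only Lipe called. At 24 h 3 of the 39 were called, against 1.37% of all genes. The differences called were those of Lpcat3 (0.80 ± 0.15) and Lrp8 (0.63 ± 0.14), both positive, and of Vldlr, at -1.01 ± 0.20 (adjusted p between 0.012 and 0.033). Without the replicate that stood apart these were 0.93, 0.65 and -1.09, all called, and Lipe and Stard5 were called as well. That made 5 of the 39, where 4.85% of all genes were called. Lpcat3, an acyltransferase of phospholipids and an LXR target, had 31.6 ± 1.0 CPM in Scm, and in Rcm 42.5 ± 1.4 CPM. Its difference of 0.43 on the log2 scale (adjusted p = 0.042) was under the fold threshold.

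**Figure D5:**
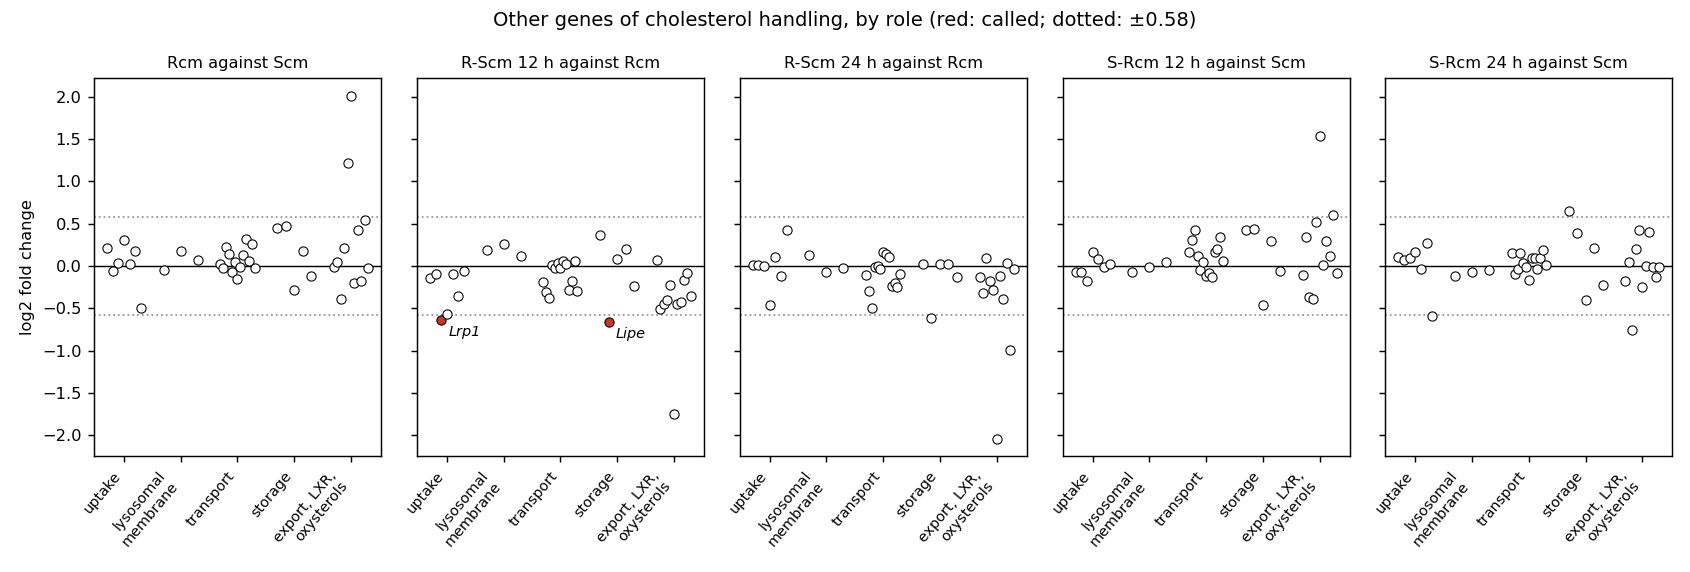
log2 fold change (y axis) of the 39 tested genes of the list, grouped by role (x axis), in the 5 comparisons. The calls are Lrp1 and Lipe in R-Scm 12 h against Rcm (red), the other genes are open, and dotted lines mark -0.58 and 0.58.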

How the data were processed

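RNA of MEFs was extracted with the RNeasy mini kit, a sequencing company made and sequenced the 18 libraries in paired-end mode, and reads were aligned to GRCm38 with HISAT2. The values the authors deposited are raw counts per gene, whole numbers without normalization. The counting tool and its use of strand are not given in the sources used here. From these counts, edgeR 4.0.16 (limma 3.58.1, R 4.3.3) was run with filterByExpr by group, TMM factors of 0.963 to 1.03 and a robust quasi-likelihood fit over all libraries, with Benjamini-Hochberg adjustment over 15381 genes. The 12 residual degrees of freedom of this fit also set its 95% intervals of the log2 fold changes. Intervals without replicate 1 of R-Scm 24 h used the fewer residual degrees of freedom of that fit. 40106 genes were removed by the filter. DESeq2 1.42.0 was an alternative. Log2 CPM used a prior count of 2, and levels per kb the exons of the GENCODE annotation. Promoters were scanned with Python 3.11.15, near-identical copies were searched with blastn 2.17.0 (at least 300 bases at 90% identity) and figures were drawn with matplotlib 3.10.9. The fit was tested on simulated data. The labels give no batch or date. Reads carry no molecular identifiers, so precision from counts covers counting error only. The members, lists, tests and the rule for naming genes (the 8 genes, their 3 nearest genes, and list genes called in the 5 comparisons) were chosen with earlier results of these data known. An exact permutation test of 3 against 3 libraries cannot go below p = 0.1 and was not used. Titles gave the replicate numbers. In S-Rcm 24 h, R-Scm 12 h and R-Scm 24 h the replicates titled 1, 2 and 3 are numbered 1, 3 and 4 in the count table.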

Additional observations from a re-analysis of the deposited data

Results flagged for a closer look

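The response to the exchange differed between its directions for Soat1 and Stard4 by a test of the difference, the log2 fold change from Scm to S-Rcm minus that from Rcm to R-Scm (edgeR's quasi-likelihood test), in which mirrored changes add up. For Soat1 the difference was -0.81 at 12 h (adjusted p = 0.0031) and -0.56 at 24 h (adjusted p = 0.045). For Stard4 it was 1.06 at 12 h (adjusted p = 0.037) and 1.07 at 24 h (adjusted p = 0.046). With 1 of 12 libraries left out, the adjusted p of Soat1 was under 0.05 in 12 of 12 cases at 12 h and in 2 of 12 at 24 h, and that of Stard4 in 0 of 12 and 2 of 12. The changes behind these values had opposite signs, with Soat1 at -0.42 and 0.39 at 12 h and Stard4 at 0.49 and -0.58 at 24 h. For Stard4 at 12 h the change to Rcm contributed 0.03 and the change to Scm -1.03.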

How the results depend on the processing

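The number of the 8 genes called in the 5 comparisons was recomputed under other thresholds, scalings, filters, models and with each library left out. In Rcm against Scm it rose from 0 to 2 (Lipa and Stard4) with the groups fitted alone and by DESeq2. With the adjusted p alone it was 2 in R-Scm 12 h against Rcm and 1 in S-Rcm 12 h against Scm, by the addition of Soat1. With 1 library left out it ranged from 0 to 2 in R-Scm 24 h against Rcm and from 0 to 1 in R-Scm 24 h against R-Scm 12 h, the upper values without replicate 1 of R-Scm 24 h. For the difference of the exchanges at 12 h it was 1 at an adjusted p under 0.01 and 1 to 1 with each library left out. For that at 24 h it was 0 at an adjusted p under 0.01, with upper-quartile scaling, without a filter, with at least 10 counts in every library and with the groups alone, 2 with the adjusted p alone and by DESeq2, and 0 to 3 with a library left out, 3 without replicate 1 of R-Scm 24 h.

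Of 514 values of the 8 genes in the 5 main comparisons under alternatives, 493 kept direction and side of the threshold, 6 became calls and 15 turned sign, all of these uncalled. Npc1 in Rcm against Scm became 0.0017 with upper-quartile scaling and ranged from -0.060 to 0.043 with a library left out. The other ranges that crossed 0 were -0.32 to 0.42 for Abcg1 in Rcm against Scm, -0.019 to 0.11 for Mylip in R-Scm 12 h against Rcm, -0.14 to 0.21 for Mylip, -0.57 to 0.21 for Abca1 and -0.041 to 0.60 for Abcg1 in R-Scm 24 h against Rcm, and -0.034 to 0.071 for Npc1 and -0.027 to 0.071 for Stard4 in S-Rcm 12 h against Scm. The cause of these shifts was not tested. Abcg1 was not tested in some alternatives with a stricter filter.

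Replicate numbers are shared between groups, but same-numbered libraries deviated together only weakly, with correlations of -0.20 to 0.35. In R-Scm 24 h against Rcm all 3 were positive, at 0.085, 0.16 and 0.35, while each other comparison held a negative value. In no comparison were all 3 above 0.1, and the numbers were not treated as pairs. With the replicate block, 0, 1, 0, 0 and 0 of the 8 genes were called in the 5 comparisons, as without it, and over all genes 342, 397, 68, 121 and 50 were called, against 354, 421, 58, 132 and 52. By the numbers of the count table, which differ from the titles in 3 groups, the correlations were -0.21 to 0.12. Abcg1 rests on the fewest counts, 7 to 34, and Abca1 on the next fewest.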

Other observations

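Replicate 1 of S-Rcm 24 h held 217 CPM of Stard4, against 140 and 144 CPM in the other libraries of its group, and a summed fibroblast marker level of 11010 CPM, against 9371 and 9628. Replicate 1 of R-Scm 24 h held 169 CPM of Stard4 and 11200 CPM of the markers, against 103 and 99.9 CPM and 9056 and 8358 CPM. With the group means removed, Stard4 and Mylip had r = 0.84 over the 18 libraries, and Stard4 and Abca1 r = 0.76, whereas over the libraries as they stand r was 0.07 and -0.06. Without replicate 1 of R-Scm 24 h the former values were 0.63 and 0.45. Soat1 and Stard4 had r = -0.50 over the libraries and 0.14 with the group means removed, or -0.52 and 0.59 without that replicate. The nearest genes to Lipa were Capn6, Plscr4 and Bmp3 (r = 0.92, 0.91 and 0.90), those to Npc1 were Pfkfb2, Tep1 and Plxnd1 (0.89, 0.86 and 0.85), those to Npc2 were Ei24, Inka2 and Inhbb (0.80, 0.78 and 0.78) and those to Abcg1 were Pcyox1l, Galnt10 and Rusc1 (0.85, 0.83 and 0.83). Cyp27a1, which forms an oxysterol that activates LXR, had 0.874 ± 0.35 CPM in Rcm and 0.225 ± 0.15 CPM in Scm. Its difference was 2.02 ± 0.71 (SE) on the log2 scale (edgeR, adjusted p = 0.16), and it was chosen after its values were seen.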
